A study of Mus musculus with 4 samples.

Results

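The matrix metalloproteinases (MMPs), the ADAM and ADAMTS proteinases, the ADAMTS-like proteins and the tissue inhibitors of metalloproteinases (TIMPs) were examined in hair follicle stem cells of mice on 2 diets. The genes were taken by symbol: every row of the deposited table named Mmp, Adam, Adamts, Adamtsl or Timp followed by its number. This gave 84 of 55401 genes, made up of 23 Mmp, 33 Adam, 19 Adamts, 5 Adamtsl and 4 Timp genes. Transcripts were measured by RNA-seq of total RNA in C57BL/6 mice whose hair follicles were in anagen, when hair grows. The groups were a high-fat diet (HFD) given for 4 months and a normal diet (ND), with 2 libraries each. The labels give neither age nor sex nor the way the cells were isolated, and leave unstated if each library is another mouse. P-values thus reflect library-to-library spread alone, possibly a technical one. In bulk RNA, a change in the share of a cell type and a change of RNA per cell cannot be told apart.

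MMPs, ADAMs and ADAMTS enzymes belong to the metzincins, proteinases that hold a catalytic zinc ion between histidines of a short conserved motif. MMPs cleave collagens, laminins and other matrix proteins, and are made as inactive precursors. ADAMs are mostly membrane proteins that release the outer parts of growth factors, cytokine receptors, cadherins and Notch from the cell surface. ADAMTS enzymes are secreted and cut proteoglycans or trim procollagens, ADAMTS-like proteins resemble them but carry no proteinase domain, and TIMPs block the active site of MMPs and of some ADAMs and ADAMTSs. In skin these genes are known for roles in wound closure, turnover of the basement membrane and shedding of epidermal growth factor receptor ligands.

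The catalytic motif divided the members by sequence. It was searched in translated GENCODE M21 coding sequences (mouse build GRCm38) as histidine, glutamate, any pair of residues, histidine, any pair, glycine or asparagine, any pair, histidine. It occurred in 61 of the 84 members, and in 0.343% of the 21584 genes with a complete coding sequence. All 23 Mmp genes, 20 of 33 Adam genes and 18 of 19 Adamts genes held it, whereas 0 of 5 Adamtsl and 0 of 4 Timp genes did. Adamts8, placed below with the proteoglycan-cleaving genes, was the Adamts gene without these letters. A miss of this strict pattern does not show that a proteinase domain is absent. The coding bases are shown for members that stand out below by level or by diet, with the codons of the zinc-binding histidines and of the glutamate in capitals.
Mmp28: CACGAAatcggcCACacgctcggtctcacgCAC
Adam8: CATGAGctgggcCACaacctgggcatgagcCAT
Adamts14: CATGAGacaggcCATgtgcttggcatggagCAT
Adamts3: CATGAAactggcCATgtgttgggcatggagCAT
Mmp14: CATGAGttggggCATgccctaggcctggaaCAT
Adam10: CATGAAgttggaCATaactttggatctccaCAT
Adamts1: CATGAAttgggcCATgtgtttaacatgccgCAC
In Adamts1 the codon aac encodes asparagine at the place where the other 6 encode glycine. Asparagine stood there in 5 members and glycine in 56.

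The libraries held 8734246 and 8590570 counts with the high-fat diet, and 9940848 and 9366856 counts with the normal diet. Markers of bulge stem cells were present in all 4 libraries, with Krt15, a keratin of the bulge, at 1640 and 1641 FPKM (the authors' counts scaled to exonic length and library total) with the high-fat diet and 1170 and 1571 FPKM with the normal diet. By edgeR 0 of these 8 markers were called and 3 had an unadjusted p under 0.05, where 13.3% of all tested genes had such a p. The sign was positive for 3 and negative for 5. Without overlap between the diets 5 were lower and 1, Krt15, higher with the high-fat diet, beside 21.9% and 22.7% of all tested genes. Adipocyte markers were at 0 counts for 5 of 5 genes. Suprabasal epidermal markers summed to 1506 and 1867 FPKM with the high-fat diet, against 511 and 1089 FPKM with the normal diet. Basal epidermal markers summed to 7995 and 7358 FPKM with the high-fat diet, against 5638 and 6299 FPKM with the normal diet. Normal diet replicate 1 stood lowest in both sums. Of 14479 genes tested with edgeR's quasi-likelihood test, 195 (1.35%) had an adjusted p under 0.05, 162 higher (1.12%) and 33 lower (0.228%) with the high-fat diet. Without normal diet replicate 1 this number was 0 (with 1488 genes at an unadjusted p under 0.05), and without normal diet replicate 2 it was 3. The calls on Mmp28, Adam8, Serpinb2 and Tnc described below were lost when either normal diet library was left out.

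A small part of the family accounted for most of its expression. Of the 84 members 22 had 0 counts in every library, 26 had counts but fell below the filter for testing (about 10 counts in at least 2 libraries), and 36 were tested. A gene could pass this filter through 1 diet alone. Among the tested members 7 had a mean of at least 10 FPKM over the 4 libraries, and together they made up 76.2% of the summed FPKM of the tested members. In descending order of FPKM these were Timp2, Timp3, Mmp14, Adam10, Adamts1, Adam9 and Mmp15. The inhibitors Timp2 and Timp3 thus stood above every proteinase of the set, with mean FPKM above those of 94.9% and 92.3% of all tested genes. Timp2 had 49.4 and 44.0 FPKM with the high-fat diet, against 42.0 and 50.2 FPKM with the normal diet. Timp3 had 31.8 and 34.8 FPKM with the high-fat diet, against 29.5 and 34.8 FPKM with the normal diet. The diets overlapped for both genes. The lowest Timp3 library lay above the highest Mmp14 library, whereas the ranges of Mmp14 and Adam10 overlapped. Timp2 shares positions with Cep295nl on the same strand, which had 128 counts over all libraries.

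**Figure D1:**
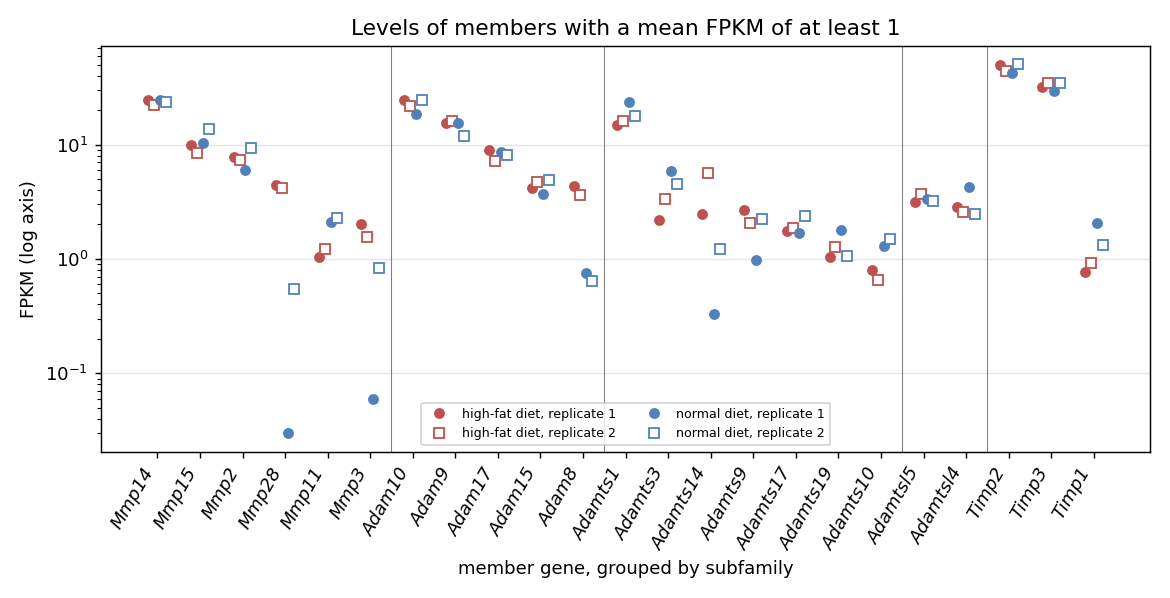
Deposited FPKM on a log axis for the 23 members with a mean of at least 1 FPKM, with 1 point per library (high-fat diet in red, normal diet in blue; circles for replicate 1, squares for replicate 2). The libraries of both diets lie together for Timp2, Timp3, Mmp14 and Adam10, while both high-fat diet points lie above both normal diet points for Mmp28 and Adam8.

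Summed over a subfamily, levels overlapped between the diets for Mmp, Adamts and Timp genes, but not for Adam and Adamtsl genes. Mmp genes summed to 51.2 and 47.4 FPKM with the high-fat diet, against 43.7 and 51.0 FPKM with the normal diet. Mmp14 alone gave between 45.9% and 56.2% of this sum. Adam genes summed to 59.1 and 54.2 FPKM with the high-fat diet, against 48.7 and 51.4 FPKM with the normal diet, so that the diets did not overlap. Adam9, Adam10, Adam15 and Adam17 gave between 89.7% and 96.3% of this sum. Adam8, described below, added 4.34 and 3.61 FPKM with the high-fat diet, against 0.76 and 0.64 FPKM with the normal diet. Without Adam8 the FPKM sums of the diets overlapped narrowly. The Adam sums were also taken in CPM, counts scaled to a common library size by TMM. They were 318 and 286 CPM with the high-fat diet, against 245 and 263 CPM with the normal diet. Adam8 gave 20.9 and 17.2 CPM of these, against 3.40 and 2.93 CPM. The CPM sums did not overlap with or without Adam8. Adamts genes summed to 28.9 and 33.8 FPKM with the high-fat diet, against 37.6 and 33.5 FPKM with the normal diet. Adamts1 gave between 47.5% and 62.4% of that sum. Adamtsl genes summed to 6.27 and 6.38 FPKM with the high-fat diet, against 8.09 and 6.51 FPKM with the normal diet. The log2 ratio of means was -0.21. Adamtsl2, which stayed below the filter, gave 0.52 FPKM in normal diet replicate 2 and at most 0.03 FPKM in each other library. Without Adamtsl2 the Adamtsl sums of the diets overlapped. Timp genes summed to 82.0 and 79.7 FPKM with the high-fat diet, against 73.5 and 86.4 FPKM with the normal diet. A comparison of 2 with 2 libraries cannot pass an exact test, and these sums were not tested.

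**Figure D2:**
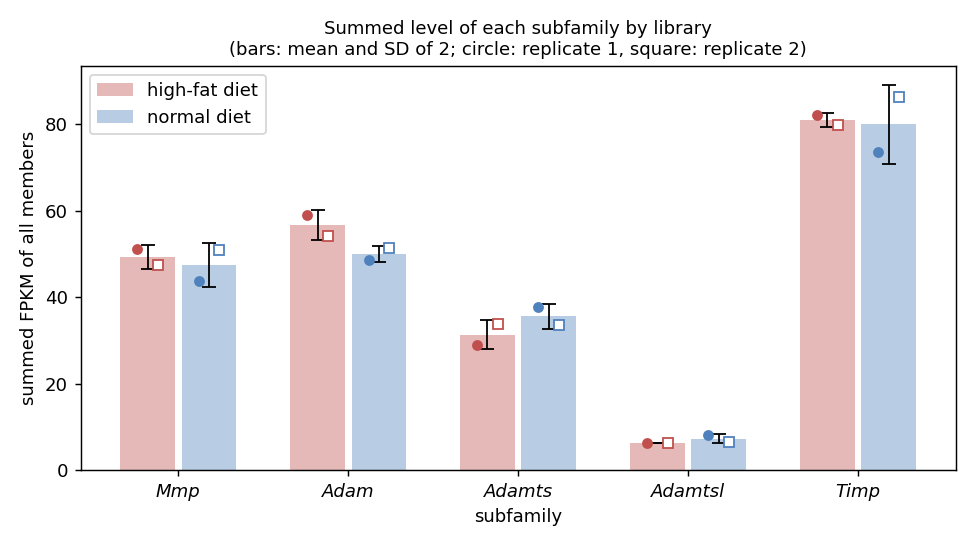
Summed FPKM of all members of each subfamily, with bars for the mean, whiskers for the SD of 2 libraries and points for each library. The 2 diets overlap for Mmp, Adamts and Timp genes, and Timp genes have the highest sum in every library.

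With the high-fat diet 2 of the 36 tested members rose and 0 fell (edgeR adjusted p under 0.05), the metalloproteinase gene Mmp28 and the sheddase gene Adam8. That is 5.56% of the tested members beside 1.35% of all tested genes, and it rests on 2 genes. By subfamily 1 of 8 tested Mmp, 1 of 8 Adam, 0 of 14 Adamts, 0 of 3 Adamtsl and 0 of 3 Timp genes were called. The sign of the log2 fold change was positive for 22 tested members and negative for 14, and the median was 0.07, beside 0.00 for all tested genes. In CPM, 16 of 36 tested members had no overlap between the diets, 10 higher (22.7% of all tested genes were) and 6 lower (21.9%) with the high-fat diet. This share of 44.4% lies next to the 44.6% of all tested genes without overlap. At an unadjusted p under 0.05 there were 7 members, where 13.3% of all tested genes had such a p. Of these 5 were higher (7.24% of all genes) and 2 lower (6.03%).

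The number of members called depended on the libraries and the tool. It was 2 with RLE factors (1.33% of all tested genes called) and with total counts (1.36%), and 3 with equal TPM sums (0.628%), without a count filter (2.55%), with a mean count of at least 50 (2.79%) and with a replicate block (2.89%). The added member was Adamts14 each time. DESeq2 called Adam8 and Adamts14 (2.69% of all genes). limma on log2(FPKM + 1) and on log2(FPKM + 0.1) called 0 members (0.0138% of all genes each), with 6 members at an unadjusted p under 0.05. Without high-fat diet replicate 1 there were 3 (0.573%), without high-fat diet replicate 2 there were 2 (0.401%), and without normal diet replicate 1 (0% of all genes) or normal diet replicate 2 (0.0207%) there were 0, with 7 and 11 members at an unadjusted p under 0.05.

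**Figure D3:**
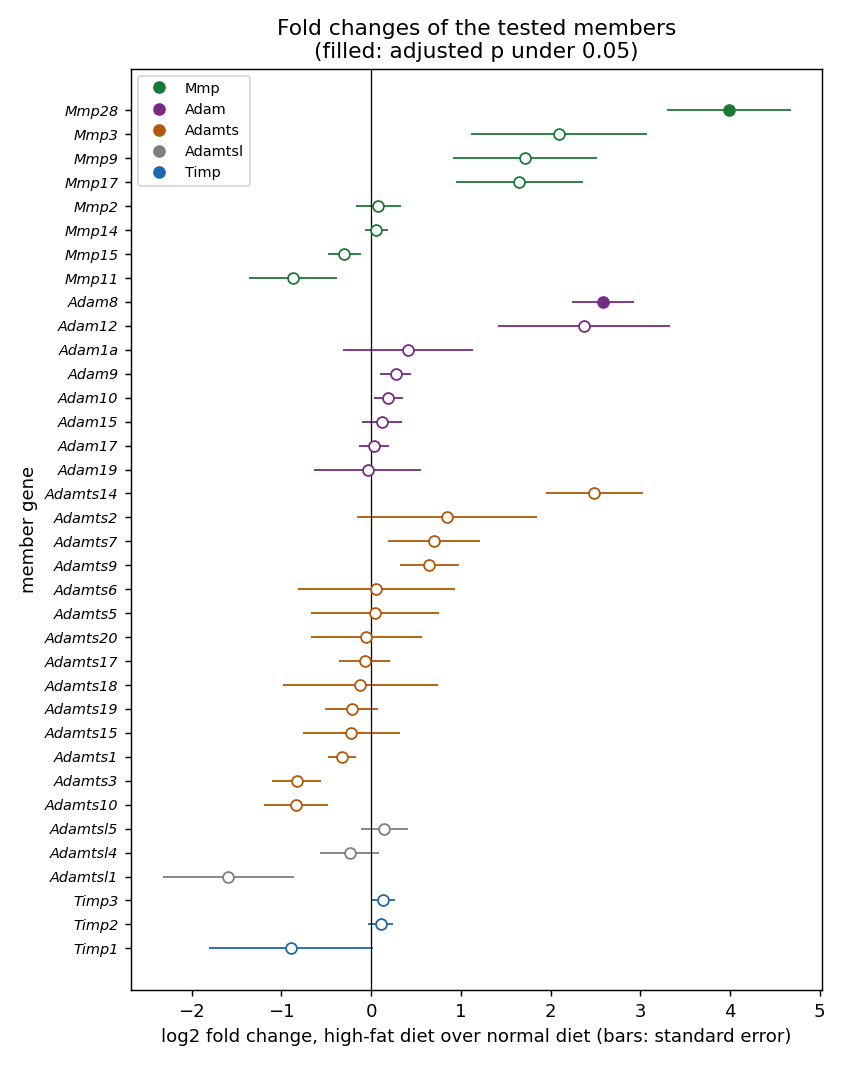
Log2 fold change (high-fat diet over normal diet, edgeR) of the 36 tested members by subfamily, with bars for 1 standard error and filled points for an adjusted p under 0.05. The filled points are Mmp28 and Adam8, and the abundant members Mmp14, Adam10, Adam17, Timp2 and Timp3 lie near 0.

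Mmp28 encodes epilysin, a secreted MMP known from basal keratinocytes of healing skin and from testis (chromosome 11, positions 83440768 to 83463071, minus strand, GRCm38). It had 151 and 138 counts with the high-fat diet, against 1 and 20 counts with the normal diet. Both high-fat diet libraries were high and alike, while the normal diet libraries differed 20-fold from each other in counts. In CPM (counts scaled to a common library size by TMM) it averaged 17.2 ± 1.04 with the high-fat diet and 1.10 ± 1.41 with the normal diet (SD, n = 2 each). The log2 fold change was 3.99 ± 0.69 (SE), a 15.9-fold rise (edgeR adjusted p = 0.021). It was 3.04 without normal diet replicate 1 (adjusted p = 0.456) and 7.28 without normal diet replicate 2 (adjusted p = 0.139), where the single remaining count makes the size depend on the fit's prior count. DESeq2 did not call it (adjusted p = 0.213).

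The MMP genes with high levels were not called. Mmp14 encodes the membrane-type MMP that activates the precursor of Mmp2, and it had 24.6 and 22.4 FPKM with the high-fat diet, against 24.6 and 23.4 FPKM with the normal diet. These are nearly the same values, with a log2 fold change of 0.06 ± 0.13 (SE; edgeR adjusted p = 0.913) that turned negative with libraries scaled to equal totals or equal TPM sums. Mmp15, a related membrane-type MMP, had 9.89 and 8.50 FPKM with the high-fat diet, against 10.3 and 13.7 FPKM with the normal diet. Its log2 fold change of -0.30 ± 0.19 (SE) did not pass (adjusted p = 0.546). The gelatinase gene Mmp2 had 7.85 and 7.39 FPKM with the high-fat diet, which lie between its values of 5.94 and 9.34 FPKM with the normal diet.

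Several low-level MMP genes had separate values in the 2 diets without passing the test. Mmp3, the stromelysin that cleaves basement membrane proteins and activates other MMPs, had 32 and 24 counts with the high-fat diet, against 1 and 14 with the normal diet. Its normal diet libraries, like those of Mmp28, were low in replicate 1, and the log2 fold change of 2.09 ± 0.98 (SE; adjusted p = 0.388) was 1.18 without that library and 4.91 without the other. Mmp9, the second gelatinase, had 20 and 38 counts with the high-fat diet, against 16 and 5 with the normal diet. Here normal diet replicate 1 was the higher of its pair, and the log2 fold change was 1.72 ± 0.81 (SE; adjusted p = 0.389). It was 2.70 without normal diet replicate 1 and 1.15 without normal diet replicate 2. Mmp17, a membrane-type MMP with a glycolipid anchor, had 33 and 29 counts with the high-fat diet, against 9 and 14 with the normal diet. Mmp11, stromelysin 3, had the opposite order, with 25 and 29 counts with the high-fat diet, against 58 and 59 with the normal diet, and tight pairs in both. Its log2 fold change of -0.87 ± 0.49 (SE) did not pass either (adjusted p = 0.488). Mmp11 overlaps Chchd10 on the opposite strand, which had 172 counts over all libraries beside 171 of Mmp11, and without a stated strand setting their reads cannot be told apart. For counts this low only large differences could pass.

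**Figure D4:**
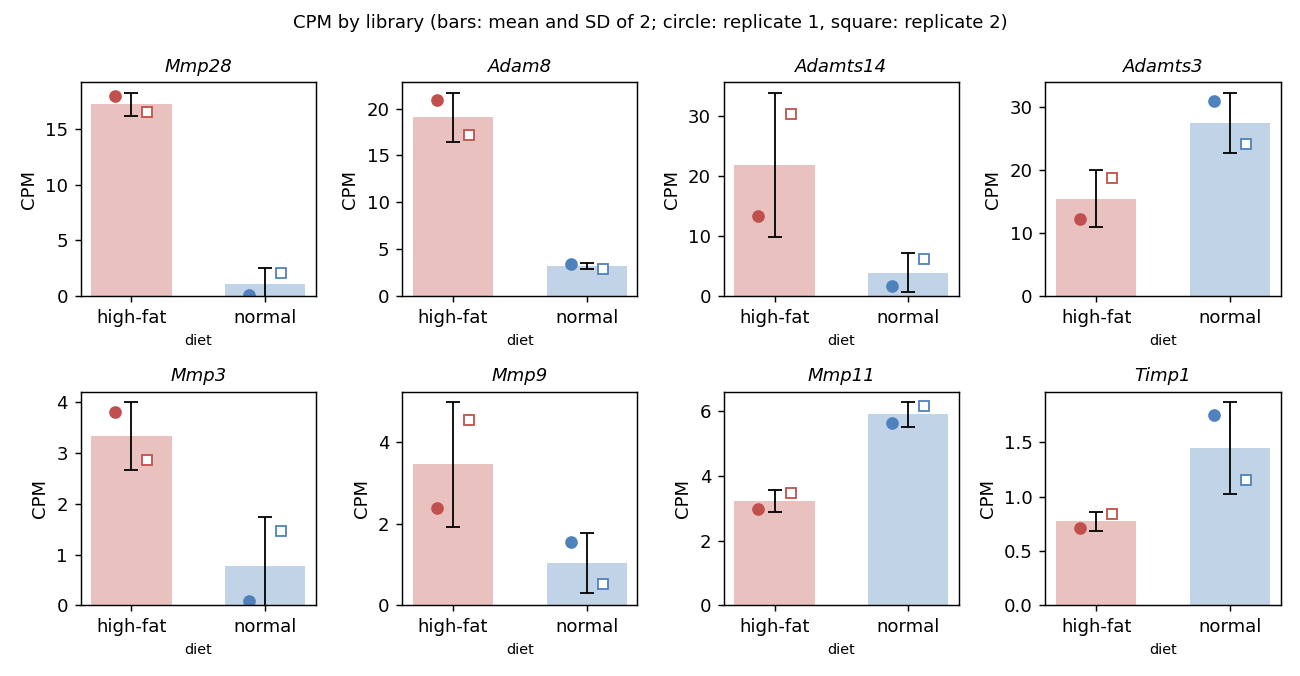
CPM of 8 members, with bars for the mean, whiskers for the SD of 2 libraries, circles for replicate 1 and squares for replicate 2. Mmp28 and Adam8 have both high-fat diet points far above the normal diet points, Adamts14 and Adamts3 have opposite orders of the diets, and Mmp3, Mmp9, Mmp11 and Timp1 have less than 7 CPM in every library.

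The remaining MMP genes were at or near 0. The 10 Mmp genes of chromosome 9 lie together between positions 7272514 and 7699585 (GRCm38) and include collagenases, stromelysins and matrilysin. Of these 7 had 0 counts in every library, and apart from Mmp3 the highest total over all libraries was 4 counts, for Mmp13. The collagenase genes Mmp1a, Mmp1b and Mmp8 had 0 counts, which allows up to 0.359 CPM in the shallowest library if 3 counts are taken as the limit (counting error only). Mmp25 had 2 and 11 counts with the high-fat diet against 0 and 0 with the normal diet, below the filter.

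Adam8 encodes a sheddase known from leukocytes and from cells at sites of inflammation (chromosome 7, positions 139978932 to 139992562, minus strand, GRCm38). It had 176 and 144 counts with the high-fat diet, against 35 and 28 counts with the normal diet. The 2 libraries of each diet lay close together and the diets were far apart. It averaged 19.1 ± 2.63 CPM with the high-fat diet and 3.17 ± 0.33 CPM with the normal diet (SD, n = 2 each). The log2 fold change was 2.59 ± 0.34 (SE), a 6.00-fold rise (edgeR adjusted p = 0.005). Its size held when any library was left out, between 2.44 and 2.72, but the call was lost without normal diet replicate 1 (adjusted p = 0.456) and without normal diet replicate 2 (adjusted p = 0.139). The range of adjusted p over all alternatives was from 7.79e-09 to 0.456.

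Immune cell markers were listed beside Adam8 because of where it is known. Of 10 such genes, Itgam and Mcpt4 had 0 counts in every library and Lyz2 had 0 and 1 counts with the high-fat diet, against 3 and 2 with the normal diet. Ptprc, the pan-leukocyte gene, had 22 and 59 counts with the high-fat diet, against 9 and 72 with the normal diet, and Cd74, an antigen presentation gene, had 17.8 and 18.9 FPKM with the high-fat diet, against 7.91 and 14.3 FPKM with the normal diet. The list summed to 22.8 and 22.8 FPKM with the high-fat diet, against 11.8 and 17.6 FPKM with the normal diet, without overlap, and Cd74 made up most of each sum. Of the list 5 genes were tested and 0 were called by edgeR, 4 with a positive sign and 1 with a negative one. Among them 1 had an unadjusted edgeR p under 0.05, beside 13.3% of all tested genes. Basal epidermal markers, whose sums are given above, had 1 of 6 genes called by edgeR, Krt14. It was higher, as were 1.12% of all tested genes. With the high-fat diet 5 of 6 were higher without overlap (22.7% of all tested genes were) and with an unadjusted p under 0.05 (7.24%). Suprabasal markers had 3 of 9 genes called higher and 1 lower by edgeR, beside 1.12% and 0.228% of all tested genes. Their sign was positive for 8 and negative for 1. Without overlap 7 were higher and 1 lower, beside 22.7% and 21.9% of all tested genes. The part of immune, basal and suprabasal cells in the values of Mmp28 and Adam8 was not tested.

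The sheddases that are abundant in these cells gave no call. Adam10, which cleaves Notch and E-cadherin, had 24.6 and 21.6 FPKM with the high-fat diet, against 18.5 and 24.4 FPKM with the normal diet. Adam17, which releases tumour necrosis factor and most ligands of the epidermal growth factor receptor, had 8.91 and 7.18 FPKM with the high-fat diet, against 8.62 and 8.13 FPKM with the normal diet. The diets overlapped for both genes, and in every library Adam10 stood between 2.15 and 3.01 times above Adam17 in FPKM. Their log2 fold changes were 0.19 ± 0.16 and 0.03 ± 0.17 (SE), and that of Adam17 turned negative with equal totals or equal TPM sums. Adam9 had 15.4 and 15.9 FPKM with the high-fat diet, against 15.5 and 11.99 FPKM with the normal diet (log2 fold change 0.27 ± 0.17, SE). The diets overlapped for Adam9 in FPKM but not in CPM, with 65.7 and 67.3 against 61.7 and 48.4. Adam15 had 4.14 and 4.68 FPKM with the high-fat diet, inside its values of 3.70 and 4.90 FPKM with the normal diet. Genes on the opposite strand overlap Adam17 (Iah1, 394 counts over all libraries), Adam15 (4731419I09Rik, 77 counts), Adam8 (Gm16201, 3 counts) and Mmp28 (1700020L24Rik, 3 counts).

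Adam12 is an ADAM of mesenchymal and regenerating tissues, and it was low throughout. It had 34 and 11 counts with the high-fat diet, against 4 and 6 with the normal diet. Its log2 fold change of 2.37 ± 0.96 (SE) did not pass (adjusted p = 0.308), and high-fat diet replicate 1 held most of the reads. Without that library it was 1.35. All 8 tested Adam genes carried the zinc motif. The 13 Adam genes without it, among them the adhesion proteins Adam11, Adam22 and Adam23 of the nervous system, summed to 0.48 and 0.26 FPKM with the high-fat diet, against 0.44 and 0.59 FPKM with the normal diet, and 0 were tested. Of 21 Adam genes known from testis and epididymis 14 had 0 counts in every library and 1, Adam1a, was tested. Adam19 had 23 and 31 counts with the high-fat diet, against 38 and 28 with the normal diet, and so overlapped. The 13 Adam genes of chromosome 8 included 9 with 0 counts, and the abundant one among them was Adam9.

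The 3 ADAMTS enzymes that remove the amino-terminal propeptide of fibrillar procollagens had different values among themselves. Adamts14 (chromosome 10, positions 61197112 to 61273438, GRCm38) had 112 and 254 counts with the high-fat diet, against 17 and 59 counts with the normal diet. Each diet's libraries differed more than 2-fold, yet the diets did not overlap. The log2 fold change was 2.49 ± 0.54 (SE), and it stood just outside the threshold (edgeR adjusted p = 0.051). It passed with libraries scaled to equal TPM sums (adjusted p = 0.039) and with DESeq2 (adjusted p = 6.99e-04). The log2 fold change was 2.96 without high-fat diet replicate 1 and 1.77 without high-fat diet replicate 2. It was 1.82 without normal diet replicate 1 and 3.71 without normal diet replicate 2.

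Adamts3, which also acts on the lymphatic growth factor VEGF-C, had the opposite order (chromosome 5, positions 89677087 to 89883334, GRCm38). It had 103 and 156 counts with the high-fat diet, against 318 and 230 counts with the normal diet. The normal diet libraries were the higher ones, without overlap, but the log2 fold change of -0.83 ± 0.27 (SE) did not pass (adjusted p = 0.202). Per length, the ratio of Adamts14 to Adamts3 was 1.138 and 1.70 with the high-fat diet, against 0.056 and 0.268 with the normal diet. Adamts14 was thus above Adamts3 in both high-fat diet libraries and below it in both normal diet libraries, a description that was not tested. Adamts2, the main procollagen N-proteinase of skin, had 28 and 33 counts with the high-fat diet, against 1 and 38 with the normal diet.

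Among the proteoglycan-cleaving ADAMTS genes Adamts1 was the most abundant. It had 15.0 and 16.1 FPKM with the high-fat diet, against 23.5 and 17.8 FPKM with the normal diet. Both high-fat diet values were below both normal diet values, and the test missed the threshold (log2 fold change -0.33 ± 0.16, SE; adjusted p = 0.405). Adamts9 had 2.69 and 2.07 FPKM with the high-fat diet, against 0.98 and 2.24 FPKM with the normal diet. Normal diet replicate 1 alone stood apart here, and the log2 fold change of 0.65 was 0.17 without it. Adamts5 had 0.29 and 0.17 FPKM with the high-fat diet, against 0.34 and 0.14 FPKM with the normal diet, and Adamts4 and Adamts8 stayed below the filter.

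Of the other ADAMTS genes, Adamts10, which binds fibrillin microfibrils, had 58 and 47 counts with the high-fat diet, against 106 and 116 counts with the normal diet. Its pairs were tight and did not overlap, but the log2 fold change of -0.84 ± 0.36 (SE) did not pass (adjusted p = 0.336). Adamts17 had 1.75 and 1.86 FPKM with the high-fat diet, between its values of 1.67 and 2.37 FPKM with the normal diet. Adamts7, Adamts18 and Adamts19, with Adamts15 and Adamts20 of the proteoglycan-cleaving group, were tested and had log2 fold changes between -0.22 and 0.70. The diets were apart in Adamts7 alone among these 5. Adamts18 had 21 and 26 counts with the high-fat diet, against 6 and 53 with the normal diet. The ADAMTS-like genes Adamtsl5 and Adamtsl4 had 3.13 and 3.72 FPKM and 2.84 and 2.55 FPKM with the high-fat diet, against 3.34 and 3.23 FPKM and 4.27 and 2.49 FPKM with the normal diet. In CPM the diets were narrowly apart for Adamtsl5, with 15.3 and 18.1 against 15.2 and 15.0. Adamtsl1 had 18 and 6 counts with the high-fat diet, against 59 and 28 with the normal diet (log2 fold change -1.59 ± 0.73, SE; adjusted p = 0.382). This was -2.57 without high-fat diet replicate 1 and -1.01 without high-fat diet replicate 2. It shares genomic positions with Sh3gl2 on the same strand, so reads of the 2 genes may not be separate. Adamtsl2 and Adamtsl3 stayed below the filter. Adamtsl2, the untested member with the most counts, had 1 and 2 counts with the high-fat diet, against 1 and 39 with the normal diet. Adamtsl3 had 9 and 2 counts with the high-fat diet, against 1 and 3 with the normal diet.

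Among the inhibitors none was called by edgeR, where Timp genes gave 0 of 3 with an unadjusted p under 0.05. Timp2, which also takes part in activation of the Mmp2 precursor by Mmp14, had a log2 fold change of 0.11 ± 0.14 (SE; adjusted p = 0.815). Timp3, the inhibitor that binds to matrix and also blocks Adam17, had one of 0.14 ± 0.13 (SE; adjusted p = 0.725). Within each library Timp3 stood 1.29 and 1.56 times above Mmp14 in FPKM with the high-fat diet, and 1.20 and 1.49 times with the normal diet. Timp3 lies within the span of Syn3, which runs on the opposite strand and had 135 counts over all libraries. Timp1, an inhibitor induced in wounds, had 6 and 7 counts with the high-fat diet, against 18 and 11 with the normal diet (log2 fold change -0.89 ± 0.91, SE; adjusted p = 0.742). Timp4 had 4 and 0 counts with the high-fat diet, against 0 and 0 with the normal diet.

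The spread between libraries of 1 diet limited what could be seen. The libraries were more than 2-fold apart in CPM for 3 of 36 tested members in the high-fat diet pair (8.33%) and for 10 in the normal diet pair (27.8%). Among all tested genes these shares were 9.88% and 13.4%. In 7 of the 10 members the second normal diet library was the higher one. Of the 10 members 7 had a mean under 50 counts. The plot of fold changes with each library left out shows which members depended on 1 library.

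**Figure D5:**
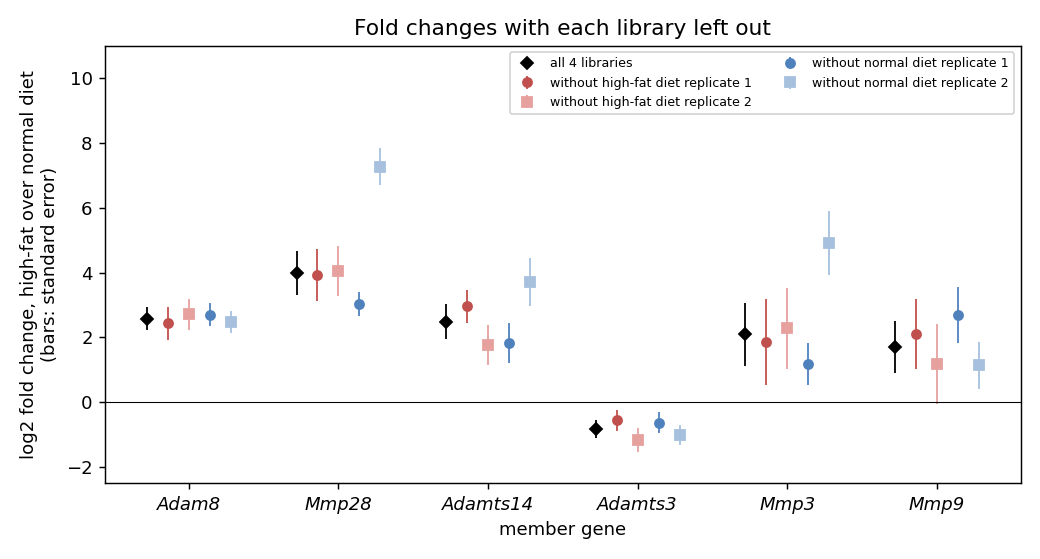
Log2 fold change (high-fat diet over normal diet, edgeR) with 1 standard error for 6 members, from all 4 libraries and with each library left out. Adam8 stays between 2.44 and 2.72, whereas Mmp28 and Mmp3 reach 7.28 and 4.91 without normal diet replicate 2, whose partner has 1 count of each gene.

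The promoters of the members that rose are shown, since Mmp28 and Adam8 moved in the same direction. They are taken from RefSeq (GRCm38.p6), from 250 bases before to 50 bases after the transcription start, and 53 of the 84 members had such an entry. Capitals mark the GC box, GGGCGG on either strand, which occurs in 35.7% of all 32851 promoters of this length. The first is at chr11:83462991-83463290 and the second at chr7:139992513-139992812, both on the minus strand.
Mmp28: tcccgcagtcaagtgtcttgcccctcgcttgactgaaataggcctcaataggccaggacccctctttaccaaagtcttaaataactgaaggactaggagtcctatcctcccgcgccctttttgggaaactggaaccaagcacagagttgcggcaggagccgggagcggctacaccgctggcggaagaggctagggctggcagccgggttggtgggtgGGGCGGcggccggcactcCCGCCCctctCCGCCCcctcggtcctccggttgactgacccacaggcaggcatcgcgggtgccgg
Adam8: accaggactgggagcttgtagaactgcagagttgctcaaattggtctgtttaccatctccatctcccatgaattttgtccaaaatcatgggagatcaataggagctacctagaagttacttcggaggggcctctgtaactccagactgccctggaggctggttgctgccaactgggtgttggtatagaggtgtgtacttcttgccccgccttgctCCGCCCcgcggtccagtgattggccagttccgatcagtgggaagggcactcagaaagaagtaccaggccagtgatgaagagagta
The window of Mmp28 held 3 GC boxes and that of Adam8 held 1. The AP-1 letters TGANTCA, on either strand, occur in 7.81% of promoters, and the TATA letters TATAAA in 13.6%. Neither was found in these 2 windows.

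Other genes that act with these proteinases were taken from 6 lists with 94 genes, 76 of them tested. Of these 2 rose and 0 fell (edgeR), a share of 2.63% beside 1.35% of all tested genes, the sign was positive for 53 and negative for 23, and the median log2 fold change was 0.19, beside 0.00 for all tested genes. The plasminogen and serine protease list had 1 of 16 tested genes higher and a median of 0.52. That gene was Serpinb2, an inhibitor of plasminogen activators, with 14.8 and 15.5 FPKM with the high-fat diet, against 1.76 and 4.23 FPKM with the normal diet (log2 fold change 2.43 ± 0.35, SE; adjusted p = 0.008). Spint1, a membrane inhibitor of serine proteases, had 10.1 and 10.7 FPKM with the high-fat diet, against 6.22 and 7.41 FPKM with the normal diet (adjusted p = 0.196). Serpinb2 lost the call without either normal diet library (adjusted p = 0.456 without replicate 1 and 0.139 without replicate 2). Among the matrix substrates 1 of 20 tested genes rose, with a median of 0.25. By edgeR 8 had an unadjusted p under 0.05, 6 higher (7.24% of all tested genes were) and 2 lower (6.03%). The gene that rose was Tnc, which encodes tenascin C, with 27.6 and 24.5 FPKM with the high-fat diet, against 17.5 and 15.2 FPKM with the normal diet (log2 fold change 0.76 ± 0.14, SE; adjusted p = 0.024). The call on Tnc was lost with libraries scaled to equal TPM sums (adjusted p = 0.177) and without any 1 of the 4 libraries (adjusted p from 0.059 to 0.464). Col17a1, a collagen of the hemidesmosome that is shed by ADAMs, had 567 and 550 FPKM with the high-fat diet, against 383 and 479 FPKM with the normal diet (adjusted p = 0.115). Among the alternatives it was called only with DESeq2 (adjusted p = 0.021) and by edgeR without a count filter (adjusted p = 6.92e-04). Col17a1 is also 1 of the 6 basal epidermal markers, so the 2 lists share it. Of the 2 lower genes, Ltbp1, which binds latent TGF-beta, had 3.92 and 5.31 FPKM with the high-fat diet, against 11.1 and 5.96 FPKM with the normal diet (log2 fold change -0.79 ± 0.25, SE; adjusted p = 0.190), and it was called without a count filter and with the replicate block. The other, Bgn, which encodes the proteoglycan biglycan, had 46.6 and 36.02 FPKM with the high-fat diet, against 51.25 and 60.6 FPKM with the normal diet (adjusted p = 0.346).

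The lists next to the sheddases had 0 calls by edgeR, with an unadjusted p under 0.05 for 4 of 20 substrates and 1 of 10 partners, beside 13.3% of all tested genes. Of 20 tested substrates of Adam10 and Adam17 15 had a positive log2 fold change and 5 a negative one, with a median of 0.16. Notch3, a Notch receptor, had 6.10 and 6.07 FPKM with the high-fat diet, against 2.50 and 3.83 FPKM with the normal diet, and stood just outside the threshold (adjusted p = 0.051). Btc, an epidermal growth factor receptor ligand, had 61 and 18 counts with the high-fat diet, against 3 and 2 with the normal diet (adjusted p = 0.057). DESeq2 called 5 of the 76 genes, Notch3 and Btc among them, beside 2.69% of all tested genes. Of 10 tested partners of these sheddases 7 were positive, and the iRhom gene Rhbdf2, which carries Adam17 to the cell surface, had 16.6 and 17.6 FPKM with the high-fat diet, against 28.9 and 20.7 FPKM with the normal diet (adjusted p = 0.253). Tspan5, a tetraspanin that binds Adam10, had 3.18 and 4.68 FPKM with the high-fat diet, against 3.43 and 2.04 FPKM with the normal diet (adjusted p = 0.389).

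Of 7 tested proprotein convertases, which activate many metalloproteinase precursors, 6 had a negative log2 fold change, with a median of -0.47. Furin, the most abundant of them, had 30.7 and 29.4 FPKM with the high-fat diet, against 28.3 and 37.2 FPKM with the normal diet, and so overlapped between the diets. Pcsk6 had 3.93 and 6.06 FPKM with the high-fat diet, against 7.40 and 7.28 FPKM with the normal diet (adjusted p = 0.409). Of the convertases 0 were called by edgeR and 1 had an unadjusted p under 0.05, beside 13.3% of all tested genes. Of 3 tested astacin relatives 0 were called and 0 had such a p. Bmp1, the procollagen C-proteinase, had 7.89 and 7.98 FPKM with the high-fat diet, against 6.27 and 7.87 FPKM with the normal diet, and Tll1, a relative of it, had 3.51 and 2.79 FPKM with the high-fat diet, against 1.98 and 3.30 FPKM with the normal diet.

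Markers of dermal cells, where several of these genes are also expressed, were present in part. Of 6 dermal papilla markers 4 had at most 3 counts over all libraries. Fibroblast markers summed to 68.8 and 62.9 FPKM with the high-fat diet, against 79.8 and 92.9 FPKM with the normal diet. Most of that was Fbln1, with 57.2 and 53.0 FPKM with the high-fat diet, against 73.2 and 84.4 FPKM with the normal diet. By edgeR 0 of 9 tested fibroblast genes were called and 3 had an unadjusted p under 0.05, beside 13.3% of all tested genes. The sign was positive for 8 and negative for 1, Fbln1. Col1a1 had 3.07 and 2.23 FPKM with the high-fat diet, against 1.59 and 2.31 FPKM with the normal diet. Endothelial markers summed to 2.78 and 4.26 FPKM with the high-fat diet, against 1.63 and 2.21 FPKM with the normal diet, with 4 of 4 tested genes positive and 0 called (edgeR; none had an unadjusted p under 0.05). The part of these cells in the members' values was not tested.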

How the data were processed

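RNA-seq libraries were grouped by the diet in their labels, 2 per diet. The submitters' processing notes name HISAT2 2.0.1, cutadapt 1.9.1 and also bcl2fastq 2.17.1.14, with no roles. For the counter, the strand setting and the annotation, nothing is given in the sources used here. Per gene, the authors deposited whole-number counts and FPKM. All 221604 FPKM equalled the count over exonic size and column total within 0.005 FPKM. All 84 members had the same positions in GENCODE M21, so coordinates are on GRCm38.

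Counts were tested in R 4.3.3 with edgeR 4.0.16 (TMM, default expression filter, quasi-likelihood test) on 14479 genes, with Benjamini-Hochberg adjustment over all of them. Each SE was the fold change (log2) divided by the root of its F statistic. Gene lists came from general knowledge. The members and lists were chosen with earlier results of these data known. Named members are those called, the 5 highest by FPKM and the 3 with the smallest p of each subfamily, and 11 of prior interest. 1 gene that the rule for the lists names is not reported here. Adam11, Adam22, Adam23, Adam1a, Adamts2, Adamts4, Adamts5, Adamts7, Adamts8, Adamts15, Adamts18, Adamts19, Adamts20, Adam19, Mmp1a, Mmp1b, Mmp8, Mmp13, Mmp25, Fbln1, Furin, Ltbp1, Bgn and the marker genes were named after their values were seen. The self-test simulated known changes in the 14479 genes. DESeq2 1.42.0 and limma 3.58.1 on log2(FPKM + 1) were alternatives, with other scalings, filters and left-out libraries.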

Additional observations from a re-analysis of the deposited data

How the results depend on the processing

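Both calls, Mmp28 and Adam8, were kept by edgeR under other scalings, without a count filter, with a mean count of at least 50 and without either high-fat diet library. limma called 0 members with a pseudocount of 1 or of 0.1, and 0 genes of the 6 lists, while 6 members had an unadjusted p under 0.05 with each pseudocount and 2 genes in all were called. Mmp genes had 0 calls with DESeq2 and with limma, and Adam genes had 0 with limma. Adamts14 was the 1 Adamts gene called with equal TPM sums, without a count filter, with a mean count of at least 50, with DESeq2, with the replicate block and at an adjusted p under 0.1. Over the left-out libraries the number of members called was between 0 and 3, of Mmp and of Adam genes between 0 and 1, and of Adamts genes between 0 and 1. Of the list genes 1 of 76 was called with equal TPM sums, beside 0.628% of all tested genes. DESeq2 called 5 of 76 (2.69% of all), and the replicate block 8 of 76 (2.89%), 1 of them lower. Without a count filter 9 of 87 were called (2.55%), 1 of them lower. At an edgeR adjusted p under 0.1 there were 4 of 76, and the share of all genes at that threshold is not given here. The replicate block added Adamts14 to the member calls and changed no other member call. The libraries share only a number, since the labels do not pair them and the deviations of same-numbered libraries correlated at -0.0046 over genes. The log2 ratio of the summed Adam FPKM was 0.18, and 0.27 with TMM and 0.26 with RLE factors. That of Adamtsl was -0.21 (from -0.36 to -0.043 with a library left out) and that of Timp 0.02 (from -0.095 to 0.14). Of 38 named genes tested, 30 kept their direction under every alternative and 8 did not, each with a log2 fold change under 0.25 in size. Adam17 was -0.058 with total counts, -0.0495 with equal TPM sums, and -0.058 and -0.065 with limma. Mmp14 was -0.031, -0.0201, -0.031 and -0.032 in the same order, and Mmp2 was -0.0026 with total counts. With a library left out Adam17 ranged from -0.14 to 0.19, Mmp14 from -0.023 to 0.13, Mmp2 from -0.21 to 0.45, Adam10 from -0.0014 to 0.41, Adam15 from -0.074 to 0.35, Timp2 from -0.025 to 0.25, Adamts17 from -0.31 to 0.21 and Adamtsl4 from -0.57 to 0.19. The causes were not tested. Genes with fewer than about 50 counts could pass only with large differences.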
